A study of Mus musculus with 2 samples.

Results

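The 40 genes described here are transcribed mainly in G2 and M phase, and were taken by symbol from a list of mitotic genes. All 40 symbols had 1 entry each among the 32285 genes of both count matrices. The samples were colorectal tumours of mice given AOM-DSS, that is the carcinogen azoxymethane followed by the colitis-inducing agent dextran sulfate sodium. The cKO library came from mice with the genotype Mtch2fl/fl VilCre, in which Cre recombinase under the Villin promoter acts on floxed alleles of Mtch2 in the intestinal epithelium, and the WT library from Mtch2fl/fl mice without Cre. Mtch2 encodes a protein of the outer mitochondrial membrane. Tumours of several mice were pooled before dissociation with trypsin, ages were not given, and 1 droplet library (10x Genomics) was made per genotype, so there was no replicate and no test between genotypes was possible. Each interval below is a 95% interval that covers counting error only.

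Entry into mitosis is driven by cyclin B bound to the kinase CDK1, after which Polo-like and Aurora kinases build the spindle, the spindle checkpoint waits for kinetochore attachment, and the anaphase-promoting complex destroys cyclin B. In resting cells the genes for these proteins are held silent by the DREAM complex, which contains E2F4, and in dividing cells they are switched on by B-MYB and FOXM1 on the same MuvB core. In the colon division normally takes place in the crypt base and the transit-amplifying zone above it, while surface cells no longer divide. Mature neutrophils do not divide either, and most resting lymphocytes express few of these genes.

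After removal of barcodes with fewer than 500 detected genes, over 25% mitochondrial counts or a high doublet score, 4388 cKO and 7245 WT cells remained, with medians of 6928 unique molecular identifiers (UMIs) in cKO and 3723 in WT. The libraries shared 14 cell barcodes among the kept cells. Cells were assigned to classes by marker genes, cell by cell, which left 498 cKO and 2393 WT cells with under 1000 UMIs unassigned. All 12 epithelial markers were at 10 UMIs per 1000000 UMIs (CPM) or more in the epithelial-like cells of both libraries. Mtch2, the targeted gene, was read first and stood at 23.5 CPM in cKO and 93.4 CPM in WT over the epithelial-like cells. In T-like cells it stood at 41.2 CPM in cKO and 48.1 CPM in WT, and in the macrophage and monocyte-like class at 53.0 CPM in cKO and 49.8 CPM in WT. In B-like cells it stood at 41.2 CPM in cKO and 49.4 CPM in WT. It was also low in the neutrophil-like cells of cKO, at 10.6 CPM (17 UMIs, interval 6.17 to 17) against 34.3 CPM in those of WT (23 UMIs, interval 21.8 to 51.5).

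The promoters of these genes carried 2 short sequences more often than promoters in general. In 33 of the 40 genes a promoter of 300 bases, from 250 bases before to 50 bases after the annotated start, was found in RefSeq (GRCm38.p6). The cell cycle genes homology region (CHR), searched as TTTGAA on both strands, is the sequence that LIN54 of the MuvB core binds, and it was found in 25 of 33 promoters (75.8%), against 18.1% of all 27025 promoters. The CCAAT box, searched as CCAAT on both strands, is bound by NF-Y and was found in 25 of 33 promoters (75.8%), against 37.9% of all. Both were found together in 20 promoters (60.6%), against 7.12% of all. In Ube2c matches to CCAAT on the 2 strands overlap. For Kif2c, 1 of the 25 with CHR, the window (chr4:117178723-117179022, minus strand) lay inside the annotated gene (chr4:117159639-117182639). Its CHR match is therefore not at the outer start of that gene.

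Genes of DNA replication and the G1/S transition showed the other arrangement. CHR was found in 5 of their 37 promoters (13.5%), while the E2F sequence GCGGGAA, searched on both strands, was found in 17 (45.9%) and CCAAT in 21 (56.8%). Not 1 of the 33 promoters of the G2 and M phase genes held that E2F sequence, against 4.66% of all promoters. The other mitotic genes were close to the 40, with CHR in 34 of 51 promoters (66.7%) and CCAAT in 37 (72.5%), but 6 of them (11.8%) held the E2F sequence. Each match is a match of letters in this window and not a measured binding site.

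**Figure D1:**
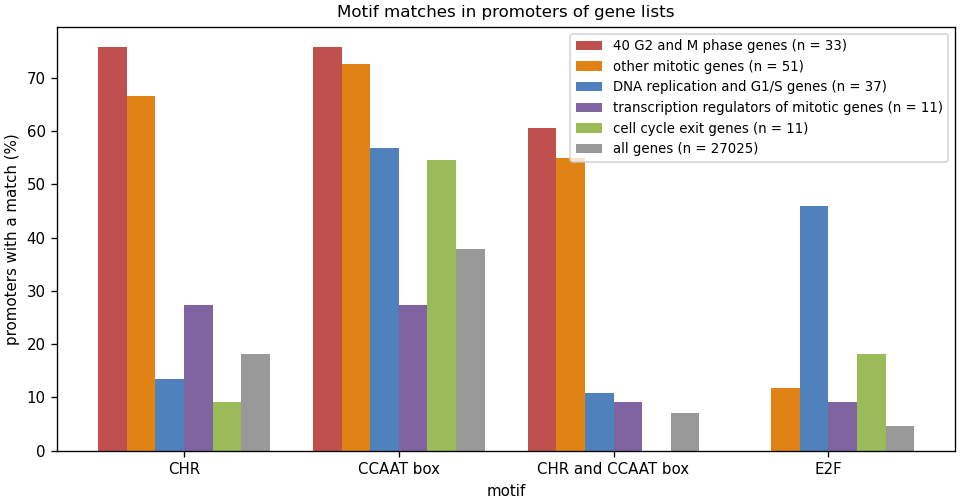
Share of promoters (vertical axis, percent) with a match to each motif (horizontal axis), for the 40 genes, 4 other gene lists and all genes, with the number of promoters in the legend. The 40 genes stand at 75.8% for CHR and at 0 for E2F, while the DNA replication and G1/S genes stand at 13.5% for CHR and 45.9% for E2F. All genes stand at 18.1% for CHR and 4.66% for E2F.

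The following 5 promoters are shown because they represent the range of the set. Ccnb2 (cyclin B2, chr9:70421505-70421804, minus strand), Ube2c (chr2:164769679-164769978, plus strand) and Plk1 (chr7:122159185-122159484, plus strand) hold CHR close to a CCAAT box. Cks2 (chr13:51644982-51645281, plus strand) holds CCAAT boxes and no CHR, and was the member with the highest level in neutrophil-like cells. Nusap1 (chr2:119618048-119618347, plus strand) holds neither, although its transcript was among those most restricted to cells in which the other members were high. Each is printed on the strand of its gene, and capitals mark CHR (TTTGAA, or TTCAAA on the opposite strand) and CCAAT (or ATTGG on the opposite strand).
Ccnb2: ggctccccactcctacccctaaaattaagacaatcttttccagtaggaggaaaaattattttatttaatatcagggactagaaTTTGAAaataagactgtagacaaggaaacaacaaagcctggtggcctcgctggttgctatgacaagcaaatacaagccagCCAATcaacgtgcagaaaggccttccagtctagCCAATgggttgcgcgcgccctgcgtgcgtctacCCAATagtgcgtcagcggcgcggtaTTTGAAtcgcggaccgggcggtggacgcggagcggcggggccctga
Ube2c: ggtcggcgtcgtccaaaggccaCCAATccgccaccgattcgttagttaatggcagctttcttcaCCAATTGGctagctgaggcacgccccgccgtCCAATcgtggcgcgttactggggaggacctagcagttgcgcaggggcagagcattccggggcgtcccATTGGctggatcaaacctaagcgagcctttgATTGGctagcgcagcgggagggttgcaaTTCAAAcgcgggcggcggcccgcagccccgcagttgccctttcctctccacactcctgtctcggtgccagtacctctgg
Plk1: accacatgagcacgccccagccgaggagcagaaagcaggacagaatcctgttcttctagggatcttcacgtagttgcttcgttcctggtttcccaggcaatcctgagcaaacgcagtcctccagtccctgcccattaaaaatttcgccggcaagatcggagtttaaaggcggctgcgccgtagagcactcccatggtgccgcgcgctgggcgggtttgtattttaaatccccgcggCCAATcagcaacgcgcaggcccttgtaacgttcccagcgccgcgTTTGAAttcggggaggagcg
Cks2: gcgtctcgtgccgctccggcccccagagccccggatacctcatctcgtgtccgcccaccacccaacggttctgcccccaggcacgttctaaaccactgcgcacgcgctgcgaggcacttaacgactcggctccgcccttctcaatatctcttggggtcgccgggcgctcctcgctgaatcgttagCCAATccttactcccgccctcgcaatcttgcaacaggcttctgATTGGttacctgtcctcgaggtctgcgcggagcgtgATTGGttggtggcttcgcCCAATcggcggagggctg
Nusap1: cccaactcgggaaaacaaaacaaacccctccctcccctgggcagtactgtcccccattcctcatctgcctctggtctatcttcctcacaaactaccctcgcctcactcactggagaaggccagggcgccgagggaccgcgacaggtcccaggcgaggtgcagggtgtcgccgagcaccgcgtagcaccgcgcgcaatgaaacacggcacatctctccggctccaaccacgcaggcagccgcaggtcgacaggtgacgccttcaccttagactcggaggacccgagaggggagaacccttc

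In Ccnb2 the CHR next to the start began 25 bases after the nearest CCAAT box, counted from first base to first base, and the spacing was 28 bases in Ube2c and 44 bases in Plk1. The spacing was 28 bases in Hmmr, 26 in Kif11, 24 in Kif4, 25 in Mki67 and 32 in Prc1. Among the 20 promoters with both, the CHR began 17 to 51 bases after the nearest CCAAT box in 12. These bounds equal the spacings in Racgap1 and Aurka and were not set independently of the data. Over the 20 the spacing ran from 9 bases, in Cdk1 and Kif23, to 153 bases in Bub1b. It was 73 bases in Cenpf and 102 in Cenpa. The same count over all promoters with both sequences was not made. In Cdc20 and Ect2 the CHR lay before the nearest CCAAT box, by 10 and 18 bases. The promoters without CHR were those of Cks2, Ccnb1, Bub1, Cenpe, Sgo1, Nuf2, Nusap1 and Birc5. No promoter entry was matched for Ccna2, Cdc25c, Pbk, Aurkb, Tpx2, Kif20a and Smc4.

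Epithelial-like cells held the highest summed level of the 40 genes among the classes present in both libraries. The 40 genes summed to 1370 CPM in the cKO library (95467 UMIs in 2061 cells) and to 1168 CPM in the WT library (110913 UMIs in 3629 cells), a log2 ratio of 0.23 (interval 0.22 to 0.24). With each cell given the same weight the ratio was -0.092, and with each cell first thinned to 3000 UMIs it was -0.11, so the direction turned with the weight given to cells. It also turned with the cells taken. Among epithelial-like cells with Xist UMIs and no Y-linked UMIs the 40 genes summed to 954 CPM in cKO and 1109 CPM in WT (log2 ratio -0.22), and among those with Y-linked UMIs and no Xist to 1313 CPM in cKO and 1171 CPM in WT (0.17). The cells with Xist made up 15.6% of epithelial-like cells in cKO and 30.4% in WT, so the libraries differed in this share as well as in genotype. The summed values below are a description of these libraries, and for each member described in full the value with cells thinned and weighted equally is given too.

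T-like cells came next among the larger classes, with 1069 CPM in cKO and 1127 CPM in WT. Macrophage and monocyte-like cells held 687 CPM in cKO and 703 CPM in WT. B-like cells held 496 CPM in cKO and 525 CPM in WT, and neutrophil-like cells 517 CPM in cKO and 594 CPM in WT. The 12 epithelial markers stood beside these levels at 1010 CPM in cKO and 1688 CPM in WT in T-like cells, at 1329 CPM in cKO and 1851 CPM in WT in B-like cells, and at 1442 CPM in cKO and 2690 CPM in WT in neutrophil-like cells. In epithelial-like cells they stood at 12715 CPM in cKO and 13523 CPM in WT, and the part of epithelial RNA in the levels of the immune classes was not tested. A class of 47 squamous-like cells with Krt5 and Krt14, found in the cKO library and not among WT cells, held 2158 CPM.

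**Figure D2:**
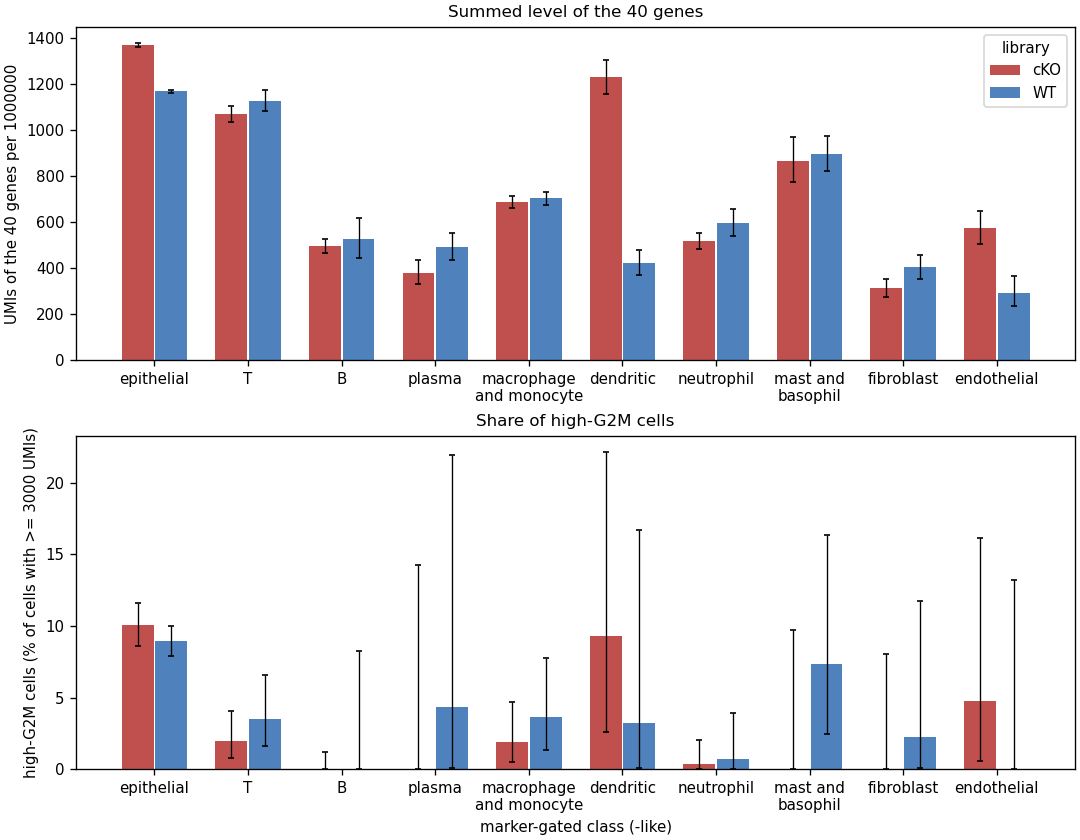
Upper panel, summed level of the 40 genes (UMIs per 1000000) by marker-gated class in the cKO and WT libraries, with exact Poisson intervals; lower panel, percent of cells with at least 10 UMIs of the 40 genes after thinning to 3000 UMIs, with exact binomial intervals. Epithelial-like cells stand at 10.1% in cKO and 8.92% in WT, and B-like cells at 0 in both.

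Cells with high levels of the 40 genes were counted one by one. Each cell with 3000 or more UMIs was thinned to 3000, and a cell was called high-G2M where at least 10 of these UMIs belonged to the 40 genes. In epithelial-like cells 161 of 1601 cKO cells (10.1%) and 261 of 2926 WT cells (8.92%) were high-G2M, a difference of 1.14 percentage points (interval -0.66 to 3.01). The interval includes 0, so no difference between the libraries in the share of such cells was detectable at this number of cells. Unthinned, with the same proportion of 1 in 300 UMIs, the shares were 9.56% in cKO and 8.51% in WT. The call is a range on a continuous score, and 32 cKO and 66 WT cells lay just below it with 8 or 9 UMIs, against 25 cKO and 47 WT cells just above it with 10 or 11.

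The few high-G2M cells carried most of the transcripts. They held 67.2% of the UMIs of the 40 genes in cKO and 63.8% in WT, while making up 15.9% in cKO and 12.5% in WT of all UMIs of the cells counted. Within them the 40 genes stood at 5794 CPM in cKO and 5954 CPM in WT. In the remaining epithelial-like cells they stood at 535 CPM in cKO and 481 CPM in WT.

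High-G2M cells held more UMIs than the others, and this differed between the libraries. Their median was 64476 UMIs in cKO and 35192 UMIs in WT, and that of the other cells 36397 UMIs in cKO and 23977 UMIs in WT. Among cells with 3000 to 10000 UMIs the share of high-G2M cells was 5.28% in cKO and 7.89% in WT, and among those with 10000 to 20000 it was 9.76% in cKO and 9.51% in WT. It was 6.17% in cKO and 3.75% in WT from 20000 to 40000 UMIs, and 9.28% in cKO and 11.8% in WT from 40000 to 80000. Above 80000 UMIs it was 28.2% in cKO and 19.1% in WT. The share was thus highest in the deepest cells of both libraries, with no steady rise below them, and the library with the higher share was not the same in all bins.

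Mtch2 itself was at a similar level in high-G2M and other cells of the cKO library. It stood at 24.9 CPM in high-G2M cells and 23.2 CPM in other epithelial-like cells of cKO (intervals 22.1 to 28.1 and 22.0 to 24.5). In WT it stood at 112 CPM in high-G2M cells and 91.2 CPM in the others (intervals 106 to 118 and 89.2 to 93.3). The 161 high-G2M cells of cKO thus stood near the level of the other epithelial-like cells of that library.

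**Figure D3:**
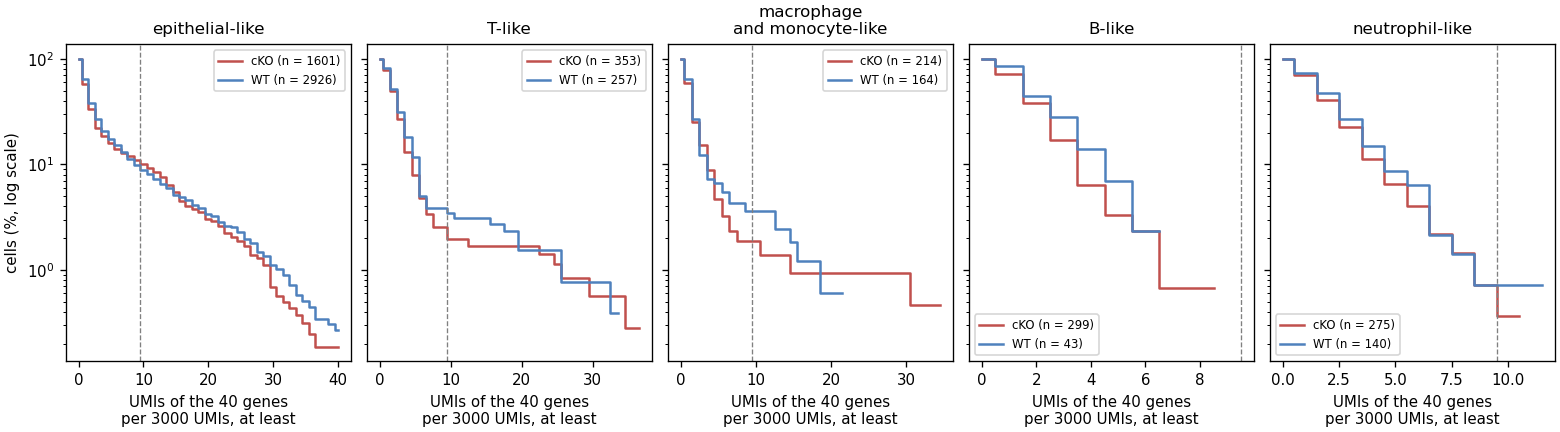
Percent of cells (vertical axis, log scale) with at least the number of UMIs of the 40 genes on the horizontal axis, after thinning each cell to 3000 UMIs, in 5 classes of the cKO and WT libraries; the dashed line marks the call at 10. Epithelial-like, T-like and macrophage and monocyte-like cells have long tails, while B-like cells end at 8 UMIs and neutrophil-like cells at 11.

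By role, the cyclins and regulators of CDK1 summed to 220 CPM in cKO and 187 CPM in WT epithelial-like cells. Cyclin A2 (Ccna2), cyclin B1 (Ccnb1), cyclin B2 (Ccnb2), Cdk1, the CDK1-binding protein Cks2 and the CDK1-activating phosphatase Cdc25c form this group. Cks2 gave the most UMIs of the group, at 91.5 CPM in cKO and 79.2 CPM in WT (log2 ratio 0.21, interval 0.16 to 0.26), and with cells thinned and weighted equally its ratio was 0.03 (interval -0.17 to 0.23). Cdc25c was at 3.75 CPM in cKO and 3.54 CPM in WT.

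Among the mitotic and checkpoint kinases, Pbk, a kinase active in mitosis, gave the most UMIs, at 20.1 CPM in cKO and 16.1 CPM in WT. Its log2 ratio of 0.32 (interval 0.22 to 0.43) was one of the 3 highest of the members at 10 CPM or more, and it was 0.18 with cells thinned and weighted equally (interval -0.27 to 0.62). The highest was that of Bub1, a spindle checkpoint kinase, at 12.6 CPM in cKO and 9.67 CPM in WT (0.38, interval 0.24 to 0.51). Bub1 reached 10 CPM only through cKO, so its place in this ranking depends on the minimum. For Bub1 the ratio was -0.31 with cells thinned and weighted equally (interval -0.97 to 0.30) and 0.16 with them weighted equally without thinning. Polo-like kinase 1 (Plk1), which acts at centrosomes and kinetochores, had one of the 3 lowest, with 17.7 CPM in cKO and 16.4 CPM in WT (0.11, interval 0.00 to 0.22), and -0.03 with cells thinned and weighted equally (interval -0.53 to 0.44). Aurora kinase A (Aurka) and the checkpoint proteins Bub1b and Ttk complete the group. Ttk stayed below 10 CPM in both libraries and was not ranked, with a summed log2 ratio of 0.34 (interval 0.17 to 0.51).

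The chromosomal passenger complex corrects wrong attachments of chromosomes and then acts in cytokinesis. It was represented by its kinase Aurkb and its subunit survivin (Birc5), and Birc5 stood at 61.0 CPM in cKO and 48.9 CPM in WT (log2 ratio 0.32, interval 0.26 to 0.38). Activation of the anaphase-promoting complex was represented by the activator Cdc20 and the ubiquitin-conjugating enzyme Ube2c. Ube2c stood at 73.0 CPM in cKO and 58.6 CPM in WT (0.32, interval 0.26 to 0.37). With cells thinned and weighted equally the ratio was 0.18 for Birc5 (interval -0.07 to 0.43) and 0.11 for Ube2c (interval -0.14 to 0.35).

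Among the 7 centromere and kinetochore genes in epithelial-like cells, Cenpf, a kinetochore protein, gave the most UMIs, at 57.4 CPM in cKO and 46.4 CPM in WT (log2 ratio 0.31, interval 0.24 to 0.37). Cenpa, the histone H3 variant that marks centromeres, stood at 45.8 CPM in cKO and 35.6 CPM in WT (0.36, interval 0.29 to 0.43). The kinetochore motor Cenpe, the microtubule-binding subunits Ndc80 and Nuf2, the scaffold Knl1 and the cohesin protector Sgo1 had log2 ratios from 0.16 (Sgo1) to 0.27 (Cenpe). With cells thinned and weighted equally the ratio was -0.14 for Cenpf (interval -0.42 to 0.12) and 0.06 for Cenpa (interval -0.24 to 0.34).

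Spindle assembly and motor genes were the spindle factor Tpx2, the microtubule-binding proteins Nusap1 and Hmmr, the spindle pole protein Aspm and the kinesins Kif11, Kif2c, Kif4 and Kif20b. Tpx2 stood at 40.4 CPM in cKO and 32.3 CPM in WT (log2 ratio 0.32, interval 0.25 to 0.40). The genes of the spindle midzone and cytokinesis were the microtubule bundler Prc1, the kinesins Kif20a and Kif23, Racgap1, the exchange factor Ect2 and the scaffold anillin (Anln). Ect2 gave the most UMIs, at 73.7 CPM in cKO and 63.1 CPM in WT (0.22, interval 0.17 to 0.28). With cells thinned and weighted equally the ratio was 0.07 for Tpx2 (interval -0.26 to 0.39) and -0.02 for Ect2 (interval -0.23 to 0.18).

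The midzone group also held the 2 lowest ratios. Kif23 stood at 29.7 CPM in cKO and 29.1 CPM in WT (log2 ratio 0.03, interval -0.05 to 0.11). Anln stood at 21.5 CPM in cKO and 20.4 CPM in WT (0.07, interval -0.02 to 0.17), and its gene overlaps another gene on the same strand, so that its count is less certain. For neither gene did the interval exclude 0. With cells thinned and weighted equally the ratio was -0.34 for Kif23 (interval -0.70 to -0.01) and -0.11 for Anln (interval -0.52 to 0.28).

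Topoisomerase II alpha (Top2a), which untangles sister chromatids, gave the most UMIs of all 40 genes. It stood at 125 CPM in cKO and 111 CPM in WT epithelial-like cells (log2 ratio 0.17, interval 0.13 to 0.21). Together with Smc4, a condensin subunit, and Mki67, which coats mitotic chromosomes and is the usual mark of proliferation, it made up 296 CPM in cKO and 259 CPM in WT.

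Over the list, the summed values pointed one way. Of the 40 members, 36 reached 10 CPM in either library, 4 of them (Bub1, Ndc80, Sgo1 and Kif20a) only through cKO, and Cdc25c, Ttk, Nuf2 and Kif2c did not reach it. The summed level was higher in cKO for 36 of these 36, and 44.3% of the 9384 genes measured were higher in cKO. The median log2 ratio was 0.23, beside -0.02 over all genes measured. It was higher by 1.2-fold or more for 11 of 36, beside 4.62% of all genes, and by 1.5-fold or more for 0 of 36, beside 0.789%.

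With cells thinned and weighted equally, 9 of the 40 members were higher and 31 lower in cKO. The interval of the ratio lay below 0 for 6 members and above 0 for 0 members. Nusap1 averaged 0.0450 UMIs per thinned cell in cKO and 0.0701 in WT (log2 ratio -0.63, interval -1.05 to -0.25). Top2a averaged 0.251 in cKO and 0.300 in WT (-0.25, interval -0.43 to -0.08), and the other 4 were Knl1, Prc1, Kif11 and Kif23. Hmmr had the highest such ratio (0.22, interval -0.14 to 0.58). For 31 of the 40 members the direction thus differed between the summed and the thinned values. For the other 9, Cks2, Pbk, Birc5, Ube2c, Cenpa, Tpx2, Hmmr, Kif4 and Smc4, the interval of the thinned ratio included 0. With cells weighted equally without thinning, Ube2c (-0.10), Tpx2 (-0.14), Hmmr (-0.21), Kif4 (-0.21) and Smc4 (-0.10) were also lower in cKO. Cks2, Pbk, Birc5 and Cenpa stayed higher. Some of the 31, such as Bub1 (0.16), were then higher in cKO.

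**Figure D4:**
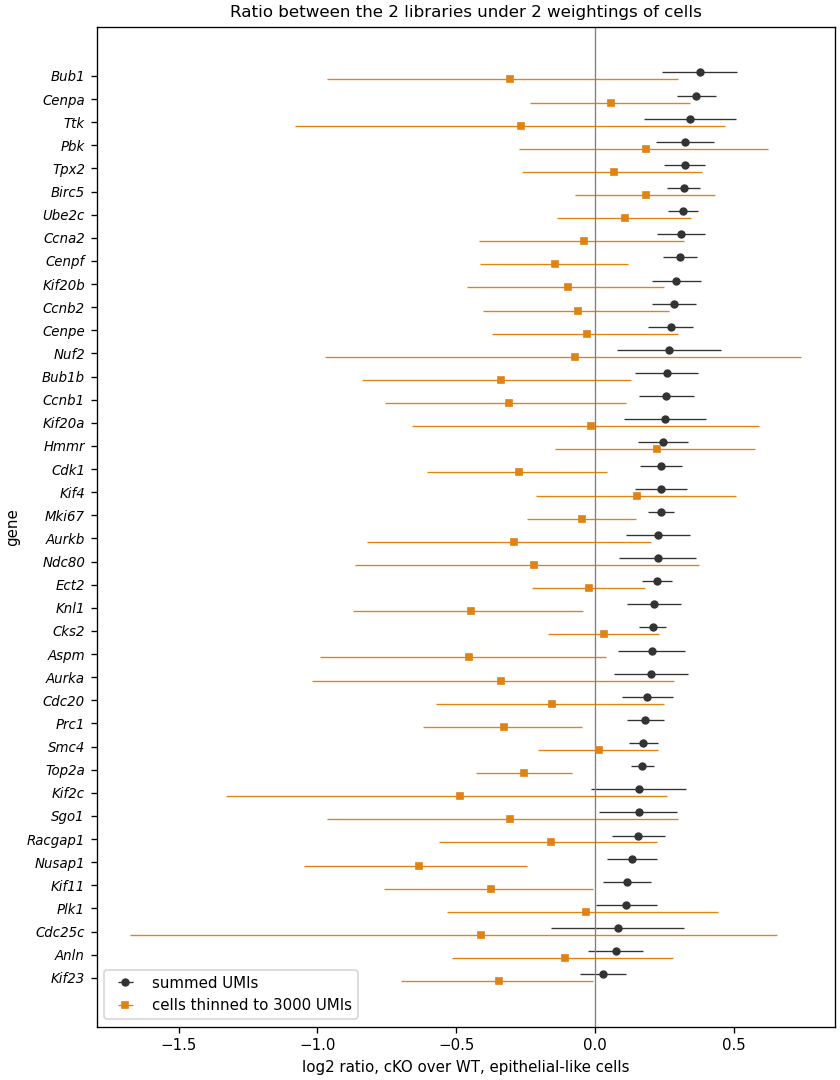
Log2 ratio of cKO over WT in epithelial-like cells (horizontal axis) for each of the 40 genes (vertical axis), from summed UMIs (circles) and from cells thinned to 3000 UMIs and weighted equally (squares), with 95% counting intervals. All 40 circles lie above 0, and 31 of the 40 squares lie below it.

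In the summed values most of the other mitotic genes and of the G1/S genes were also higher in cKO, while the lists parted once cells were weighted equally. Of the other mitotic genes 44 of 48 measured were higher in cKO by summed level, 6 of the 48 having reached 10 CPM only through cKO, beside 44.3% of all genes measured. Their median log2 ratio was 0.20. With cells weighted equally 20 of 45 were higher, beside 46.8% of all 9589 genes then measured, and 12 of 34 of the G2 and M phase genes. The highest by summed level were Psrc1, a spindle protein that reached 10 CPM only through cKO, at 11.6 CPM in cKO and 6.95 CPM in WT (0.73), and Cenpw, a centromere protein, at 25.3 CPM in cKO and 18.1 CPM in WT (0.48). The lowest were Wee1, the kinase that restrains CDK1, at 65.1 CPM in cKO and 73.2 CPM in WT (-0.17), and Iqgap3 at 10.4 CPM in cKO and 11.5 CPM in WT (-0.14).

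Of the DNA replication and G1/S genes 33 of 35 measured were higher in cKO by summed level, beside 44.3% of all genes measured. Of the 35, 1 was measured only through cKO, and their median log2 ratio was 0.23. With cells weighted equally 22 of 32 were higher, beside 46.8% of all genes then measured, with a median of 0.12. In thinned cells this list averaged 2.77 UMIs per cell in cKO and 2.56 in WT, whereas the 40 genes averaged 2.86 in cKO and 3.08 in WT. The highest were Dut, a dUTPase, at 73.1 CPM in cKO and 52.0 CPM in WT (0.49), and Fen1, a flap endonuclease, at 18.3 CPM in cKO and 13.9 CPM in WT (0.40). The lowest were the replication factor C subunits Rfc3, at 29.9 CPM in cKO and 31.6 CPM in WT (-0.08), and Rfc2, at 39.5 CPM in cKO and 40.2 CPM in WT (-0.03). Of the regulators of mitotic genes 9 of 13 measured were higher by summed level, beside 44.3% of all genes measured, with a median of 0.05. E2f4, the repressor of the DREAM complex named in the title of the series, stood at 28.3 CPM in cKO and 26.4 CPM in WT (0.10, interval 0.02 to 0.19, and -0.16 with cells weighted equally), and the MuvB subunit Lin54 at 32.3 CPM in cKO and 30.9 CPM in WT (0.07, interval -0.01 to 0.15). Of the cell cycle exit genes 4 of 10 measured were higher by summed level, with a median of -0.09. That share is close to the 44.3% of all genes measured.

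Cells that scored on both lists were more frequent in cKO. Of the epithelial-like cells 3.62% in cKO and 1.95% in WT had 10 or more thinned UMIs of both the G2 and M list and the G1/S list (intervals 2.76 to 4.66 in cKO and 1.48 to 2.52 in WT). Cells with the G2 and M list alone made up 6.43% in cKO and 6.97% in WT. Cells with the G1/S list alone made up 3.75% in cKO and 2.90% in WT.

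The epithelial subtypes differed in their share of high-G2M cells more than the libraries did. The highest share was in epithelial-like cells that passed no subtype gate, called cells without subtype markers below. A gate needed 3 or more marker UMIs from 2 or more genes and a minimum share, so these cells could hold some marker UMIs. They had 84 high-G2M cells of 435 (19.3%) in cKO and 109 of 761 (14.3%) in WT, a difference of 4.99 percentage points (interval 0.49 to 9.68). Lgr5-high stem-like cells, named for a marker of crypt base stem cells, had 7.81% in cKO and 7.94% in WT (53 of 679 cKO and 104 of 1310 WT cells). Surface inflamed-like cells had 4.73% in cKO and 5.01% in WT (13 of 275 cKO and 24 of 479 WT cells). The share was lower in surface inflamed-like than in stem-like cells in both libraries, though within each library the intervals of the 2 shares overlapped (2.54 to 7.95 against 5.90 to 10.1 in cKO, and 3.24 to 7.36 against 6.53 to 9.54 in WT).

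The smaller subtypes had few high-G2M cells. Absorptive-like cells had 0 of 78 in cKO, which allows a share of up to 3.85%, and 8 of 137 (5.84%) in WT. Goblet-like cells had 5 of 44 in cKO and 8 of 90 in WT. Paneth-type cells had 1 of 17 in cKO and 7 of 80 in WT, and cells with Mptx2 and S100g had 5 of 69 in cKO and 1 of 60 in WT. The difference for absorptive-like cells was -5.84 percentage points (interval -11.2 to -0.17). Squamous-like cells of cKO had 8 of 45.

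The summed level by subtype did not point one way. Goblet-like cells summed to 2212 CPM in cKO and 1025 CPM in WT, a log2 ratio of 1.11 (interval 1.04 to 1.17), but with cells weighted equally the ratio was 0.068. Absorptive-like cells summed to 693 CPM in cKO and 872 CPM in WT, a ratio of -0.33 (interval -0.43 to -0.23), and of -0.99 with cells weighted equally. The ratio was 0.23 in stem-like cells, 0.16 in cells without subtype markers, 0.10 in cells with Mptx2 and S100g, and 0.03 in surface inflamed-like cells. With cells weighted equally it was -0.21 in stem-like cells, 0.20 in cells without subtype markers, 0.47 in cells with Mptx2 and S100g and -0.32 in surface inflamed-like cells.

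How far each member was restricted to high-G2M cells was measured as its mean in cells called high-G2M from the other 39 genes, divided by its mean in the remaining cells. Over the epithelial-like cells of both libraries the fold was lowest for Ect2 (5.04), Cks2 (6.26), Smc4 (6.89), Ccnb2 (7.27) and Cenpa (8.75). It was highest for Cdc25c (23.6), Aspm (22.5), Nusap1 (21.4), Ube2c (18.5) and Cenpf (17.6). Cdc25c gave only 10 thinned UMIs in cKO and 25 in WT, and its log2 fold of 4.56 had an interval of 3.50 to 5.83. Its place at the top is therefore uncertain. All 40 members were thus higher in cells that scored high on the others.

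Ect2, Cks2 and Smc4 were low in each library taken alone. Ect2 had a fold of 5.92 in cKO and 4.60 in WT, Cks2 of 6.04 in cKO and 6.41 in WT, and Smc4 of 6.79 in cKO and 6.96 in WT. At the high end Ube2c had 18.1 in cKO and 18.6 in WT and Nusap1 24.7 in cKO and 20.8 in WT. For Aspm, which is rare, the folds were 47.1 in cKO and 18.1 in WT.

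Among immune cells, T-like cells and C1q-high macrophage-like cells held cells with many of the 40 genes in both libraries. Dendritic-like cells did so too, though with 1 such cell in WT. By the thinned call, such cells were also seen in WT among mast and basophil-like cells and as 1 plasma-like cell. B-like and neutrophil-like cells held none. Neutrophil-like cells gave the background. In them 1 of 275 cells in cKO (0.364%) and 1 of 140 in WT (0.714%) passed the call, and the UMIs of these cells came from 1 gene in cKO and 2 in WT, with Cks2 giving 100% in cKO and 90.9% in WT. With the call limited to cells with 6 or more different members, or made without Cks2, Cenpa and Smc4, 0 neutrophil-like cells passed in either library. Both of these rules were added after the data were seen. Given the genes that these cells held, the 0 follows from the rules and is no separate support.

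T-like cells had 7 high-G2M cells of 353 in cKO (1.98%, interval 0.80 to 4.04) and 9 of 257 in WT (3.50%, interval 1.61 to 6.54). The difference was -1.52 percentage points (interval -4.78 to 1.28), so no difference between the libraries was detectable. With barcodes of high doublet score kept, there were 8 of 369 in cKO (2.17%) and 15 of 284 in WT (5.28%), so the doublet filter took away 6 of 15 such barcodes in WT. The 16 cells held a median of 14.5 different members, and 1 in the other T-like cells. They also held a median of 17 thinned UMIs of the G1/S genes, against 2 in the others. That median was 19 in the 7 cKO cells and 6 in the 9 WT cells.

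Depth and epithelial RNA were checked beside this result. The 16 cells had a median of 20695 UMIs and the other T-like cells 7571. Their epithelial markers were at 6.15 per 10000 UMIs, and at 13 in the others. The part of either in the result was not tested.

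By T cell subtype the high-G2M cells were spread out. Regulatory T-like cells held 3 of 181 in cKO and 4 of 147 in WT. Type 17 and gamma delta T-like cells held 1 of 44 in cKO and 1 of 41 in WT, and cytotoxic T-like cells 0 of 54 in cKO and 1 of 21 in WT. T-like cells without subtype markers held 3 of 74 in cKO and 3 of 48 in WT.

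The 3 members with the most UMIs in T-like cells were Smc4, Top2a and Mki67. Smc4 stood at 211 CPM in cKO and 156 CPM in WT. Top2a stood at 110 CPM in cKO and 124 CPM in WT, and Mki67 at 101 CPM in cKO and 94.8 CPM in WT. Of 27 members at 10 CPM or more, 7 were higher in cKO, beside 48.7% of all genes measured in T-like cells.

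Macrophage and monocyte-like cells had 4 high-G2M cells of 214 in cKO (1.87%) and 6 of 164 in WT (3.66%), a difference of -1.79 percentage points (interval -6.14 to 1.87). All 10 were in the C1q-high macrophage-like cells, with 4 of 118 in cKO (3.39%) and 6 of 120 in WT (5%). Monocyte-like cells had 0 of 68 in cKO and 0 of 20 in WT, which allows a share of up to 3.41% over both libraries. The interval of the C1q-high share over both, 2.03% to 7.59%, overlaps that range. With barcodes of high doublet score kept, the class had 6 of 218 in cKO (2.75%) and 6 of 165 in WT (3.64%).

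The 10 macrophage-like cells held a median of 11 different members, against 1 in the others, and 5.5 thinned UMIs of the G1/S genes, against 1. The G1/S median was 3 in the 4 cKO cells and 13 in the 6 WT cells. Their median was 38224 UMIs, against 16366 in the others, and their epithelial markers were at 6.04 per 10000 UMIs, against 7.75. Mki67 stood at 104 CPM in cKO and 73.5 CPM in WT over the class, Cks2 at 76.1 CPM in cKO and 62.5 CPM in WT, and Smc4 at 62.5 CPM in cKO and 53.3 CPM in WT. Of 23 members at 10 CPM or more in either library, 9 were higher in cKO, beside 45% of all genes measured. Those that reached it through 1 library alone were not counted apart.

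Dendritic-like cells were few, with 4 high-G2M cells of 43 in cKO (9.30%, interval 2.59 to 22.1) and 1 of 31 in WT (3.23%, interval 0.08 to 16.7). The summed level was 1229 CPM in cKO and 422 CPM in WT. Top2a stood at 160 CPM in cKO and 28.5 CPM in WT, Mki67 at 142 CPM in cKO and 60.5 CPM in WT, and Smc4 at 103 CPM in cKO and 37.4 CPM in WT. The 5 high-G2M cells held a median of 11 different members, and the difference between the libraries in their share had an interval of -8.98 to 19.3 percentage points. The 1 cell in WT held 4508 UMIs and epithelial markers at 26.6 per 10000 UMIs, against a median of 10.3 in the other WT dendritic-like cells, and the part of that in its call was not tested.

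Mast and basophil-like cells had 0 high-G2M cells of 36 in cKO, which allows up to 8.33%, and 5 of 68 in WT (7.35%). These 5 cells carried epithelial markers at 27.6 per 10000 UMIs, against 11.3 in the other cells of the class, and the part of that in the result was not tested. Cks2 stood at 178 CPM in cKO and 123 CPM in WT, Smc4 at 96.0 CPM in cKO and 102 CPM in WT, and Top2a at 45.2 CPM in cKO and 113 CPM in WT. Plasma-like cells had 0 of 24 in cKO and 1 of 23 in WT. Outside the immune system, fibroblast-like cells had 0 of 44 in cKO and 1 of 45 in WT, and endothelial-like cells 2 of 42 in cKO and 0 of 26 in WT.

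B-like cells had 0 high-G2M cells of 299 in cKO, which allows a share of up to 1.00%, and 0 of 43 in WT, which allows up to 6.98%. With barcodes of high doublet score kept, 1 of 48 in WT passed. Their 40 genes nevertheless summed to 496 CPM in cKO and 525 CPM in WT. Cenpa alone stood at 125 CPM in cKO and 148 CPM in WT, above its level in epithelial-like cells, and Smc4 at 92.5 CPM in cKO and 81.1 CPM in WT. Cenpa and Smc4 gave 25.7% and 18.2% of the UMIs of the 40 genes in B-like cells.

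In neutrophil-like cells a different pair of genes stood out. Cks2 stood at 283 CPM in cKO and 224 CPM in WT, and gave 49.2% of the UMIs of the 40 genes. Kif23 stood at 41.1 CPM in cKO and 71.7 CPM in WT. Of the 10 members at 10 CPM or more in either library in neutrophil-like cells, 1 was higher in cKO, beside 30% of all genes measured there. A member could reach that minimum through 1 library alone, and such members were not counted apart. The class held 1605743 UMIs in cKO and 669768 in WT, so this count does not settle a direction. Cks2, Cenpa, Smc4 and Kif23 were thus detected in classes with no or next to no high-G2M cells.

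**Figure D5:**
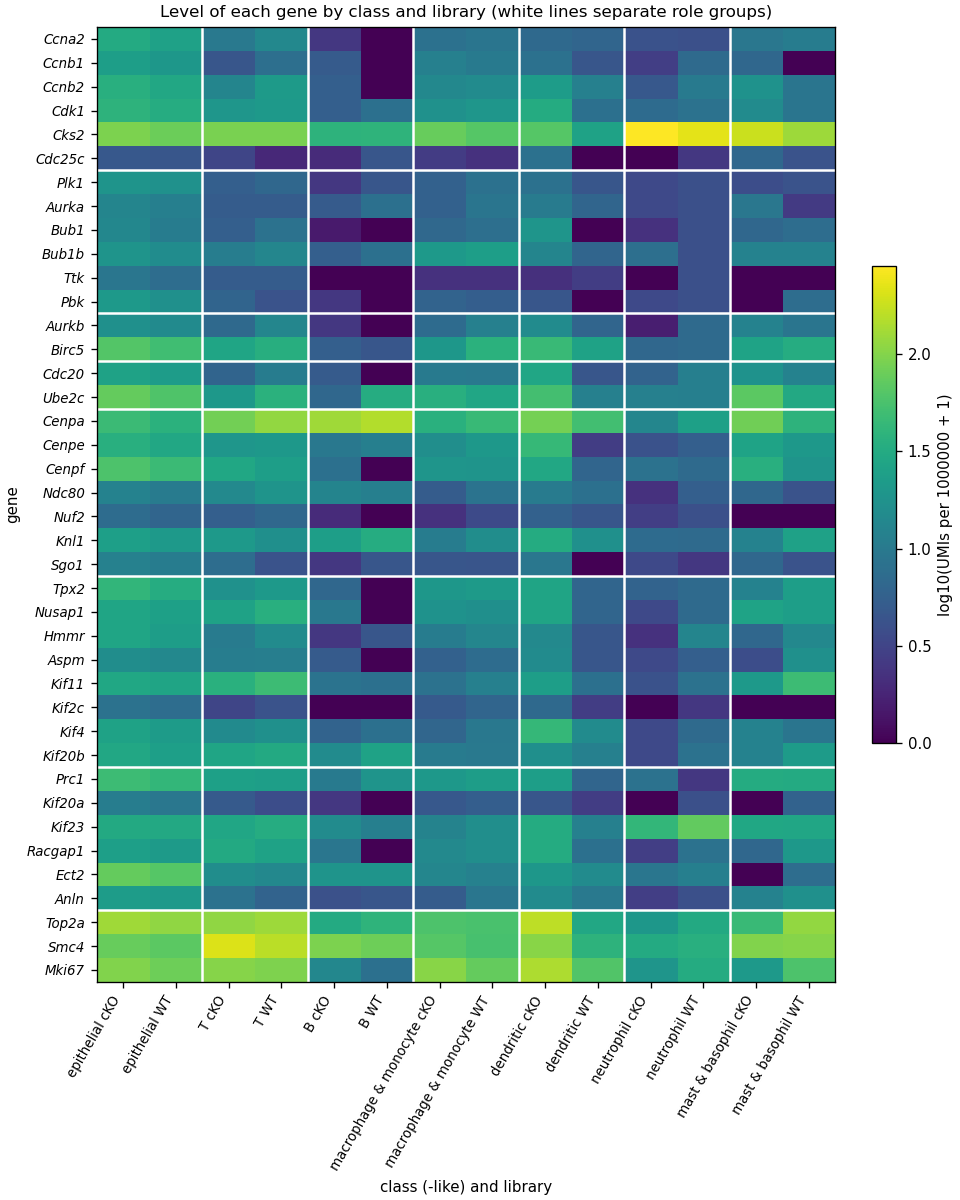
Level of each of the 40 genes (vertical axis, in order of role group) in 7 classes of the cKO and WT libraries (horizontal axis), as log10 of UMIs per 1000000 plus 1. Cks2 is brightest in neutrophil-like cells, at 283 CPM in cKO and 224 CPM in WT, and Cenpa and Smc4 stay bright in B-like cells while most other members are dark there.

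Within T-like cells the members again differed in how far they were restricted to high-G2M cells. Of the 28 members with 10 or more thinned UMIs there, a minimum chosen after the values were seen, the fold between cells called high from the other 39 genes and the remaining cells was lowest for Cenpa (2.90), Smc4 (3.43), Kif23 (4.23, interval 0.99 to 10.6) and Cks2 (5.30). It was highest for Nusap1 (60.2), Kif4 (52.0), Tpx2 (49.0) and Birc5 (46.8). In macrophage and monocyte-like cells, with 16 such members, it was lowest for Cks2 (2.68, interval 0.77 to 5.98), Cenpa (4.42), Smc4 (5.49) and Bub1b (12.3), and 13.9 for Mki67. It was highest for Tpx2 (53.8), Cenpf (50.2), Kif23 (43.5, interval 11.2 to 183) and Birc5 (41). Cks2, Cenpa and Smc4 were thus among the 4 lowest in both classes, while Kif23 was so in T-like cells and among the 4 highest in the other class.

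The makeup of the 40 genes was compared across classes, over the 40 genes. Between high-G2M epithelial-like cells and high-G2M T-like cells it had a Spearman rho of 0.76 and a Pearson r of 0.86, and with the remaining T-like cells a rho of 0.78 and an r of 0.42. With high-G2M macrophage and monocyte-like cells the values were 0.77 for rho and 0.85 for r, and with the remaining cells of that class 0.68 for rho and 0.55 for r. The rank order was therefore about as alike in T-like cells that were not high. These values are across genes, which are not independent replicates, the cells share their libraries, and high cells were chosen on the sum of these genes. Top2a gave 10.3% of the UMIs of the 40 genes in high-G2M epithelial-like cells, 15.6% in the T-like cells and 9.44% in the macrophage-like cells.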

How the data were processed

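Droplet single-cell RNA sequencing was analysed in 1 cKO and 1 WT library of pooled tumours. The deposited matrices hold raw counts of UMIs for each gene and cell barcode. Per the file headers they come from Cell Ranger 7.2.0, and per the submitters' processing notes Seurat 3.0 and the build mm10 were used. Any cell filters of the authors are not given here. The cKO matrix held 6723 barcodes with 97364087 UMIs and the WT matrix 9445 with 116066712. Barcodes with fewer than 500 genes (1607 cKO, 905 WT), over 25% mitochondrial UMIs (487 cKO, 671 WT) or the highest scrublet scores (scanpy 1.11.5, 0.8% per 1000 barcodes: 362 cKO, 714 WT) were left out. A cell of 1000 UMIs or more took the class whose markers stood highest relative to a minimum share, at least 2 times the next class. The minimum shares were set after marker levels were seen, while the markers and lists were chosen with earlier results of these data known.

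Within each library and class, UMIs were added up and expressed per 1000000 (CPM). For ratios, given as log2 with cKO over WT, 0.5 counts were added to each sum. A gene counted as measured at 10 CPM in either library. Intervals are exact (Poisson, conditional binomial, Clopper-Pearson), and differences of shares combine them by square-and-add. A count of 0 allows a share of up to 3 cells of the total, a limit on 1 side that lies below the upper end of the exact interval. UMI counts are not scaled by gene length, so levels are compared within a gene. The ratios and the thinning were tested on simulated data. Genes given full values were the 3 highest and 3 lowest ratios in epithelial-like cells, the member with the most UMIs per role group, the 3 with the most UMIs in immune classes with high-G2M cells and the 2 highest and lowest of the 2 other cycle lists. Ect2, Cenpa and others singled out by where they were detected were chosen after their values were seen. Alternatives were the filters, doublets kept, clusters (leidenalg 0.10.2, without cell cycle genes), a stricter gate, edgeR 4.0.16 TMM and median-of-ratios scaling, weighting (over all genes and lists added after seeing the data), thinning depth and the call.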

Additional observations from a re-analysis of the deposited data

How the results depend on the processing

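Of 139 recomputed values 105 lay inside the counting interval of the value reported and 34 outside it. Of the 43 that are ratios or differences, 9 turned sign, all named below. The dendritic-like class was not among the values recomputed. The summed epithelial-like log2 ratio of cKO over WT of 0.23 became 0.25 with clusters in place of the gate, 0.21 with a stricter gate and 0.30 with subtypes weighted equally. It became -0.092 with cells weighted equally and, in alternatives added after seeing the data, -0.11 with cells also thinned, 0.17 in cells with Y-linked UMIs and no Xist and -0.22 in cells with Xist and no Y-linked UMIs. The median member ratio became -0.10 with cells weighted equally (12 of 34 members higher) and -0.10 when also thinned (9 of 31). The cause of these reversals was not tested. TMM scaling raised each ratio by 0.0090 and median-of-ratios scaling by 0.0020.

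With cells weighted equally the ratio of 0.23 in stem-like cells became -0.21 and that of 0.03 in surface inflamed-like cells -0.32. That of 0.10 in cells with Mptx2 and S100g became 0.47, of -0.33 in absorptive-like cells -0.99, of 1.11 in goblet-like cells 0.068 and of 0.16 in cells without subtype markers 0.20. With clusters it became 0.31 in stem-like, 1.04 in goblet-like and 0.14 in surface inflamed-like cells.

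At 5 or more UMIs of 3000, the epithelial-like share differed by -1.76 percentage points in place of 1.14, and the share was 7.93% in cKO and 11.7% in WT T-like cells, 3.34% in cKO B-like cells, and 6.55% in cKO and 8.57% in WT neutrophil-like cells. At 20 or more the epithelial-like share was 3.06% in cKO and 3.38% in WT, a difference of -0.32 points, and the share was 1.56% in WT T-like cells, 0.610% in WT macrophage and monocyte-like cells and 0 in neutrophil-like cells. With doublets kept the share in T-like cells was 5.28% in WT in place of 3.50%. The neutrophil-like share was also 0 in both libraries without Cks2, Cenpa and Smc4 or with 6 or more members, and 0 in WT with 5000 UMIs and 17 or more and with another thinning draw. No paired analysis was possible because each genotype has 1 library.

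Calls of single cells are limited by depth, since 3000 UMIs give most cells of any class 0 to 2 UMIs of the 40 genes, and cells below 3000 UMIs (460 cKO and 703 WT epithelial-like cells) were left out of shares. Classes under 100 cells give shares with wide intervals. Genotype, mice, tumours and library cannot be told apart.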

Other observations

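The 40 genes were also read in cells that entered no class comparison. Cells with under 1000 UMIs, which were not gated, held them at 1471 CPM in cKO and 1562 CPM in WT, with epithelial markers at 12150 CPM in cKO and 15063 CPM in WT. Cells with Y-linked UMIs and no Xist made up 55.0% of epithelial-like cells in cKO and 33.3% in WT, and cells with the reverse were also present in both, so both pools held tumours of both sexes. The share of high-G2M cells was 9.47% in cKO and 7.87% in WT in the cells with Xist, and 9.18% in cKO and 9.35% in WT in the cells with Y-linked UMIs.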
